A study of Homo sapiens with 10 samples.

Results

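The RNAs described here are the expressed long intergenic noncoding RNAs (lincRNAs) of 3 human lung cancer cell lines. They were chosen by annotation and by measured level, as genes that GENCODE 29 types as lincRNA and whose mean CPM (counts scaled to a common library total) over the 10 libraries was at least 2. This rule found 229 of the 57736 gene IDs in the count table. Of the 6576 lincRNA IDs in the table, 3748 had no count in any library and 2599 had counts but fell under the threshold. Just inside it lay AC093227.1 at 2.02 CPM, LINC01444 at 2.02 CPM and FAM88C at 2.01 CPM, and just outside it lay SNHG30 at 1.99 CPM, AC022031.2 at 1.98 CPM and SNHG19 at 1.98 CPM. Because the mean level chose the lincRNAs, their levels are given as a description. The change with siRNA was tested, but the mean includes both arms and so is not independent of that change. The threshold was reached in both arms by 204 lincRNAs, in the control libraries alone by 19 and in the p53 siRNA libraries alone by 6.

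NCI-H2087 cells carry p53 V157F, NCI-H441 cells R158L and NCI-H2110 cells R158P, all established lung cancer lines. Each line received a control siRNA or an siRNA directed at p53, so both arms carry the mutation, and the sample titles call the second arm a knockout although the protocol names an siRNA. Every arm had 2 libraries, except that NCI-H2110 had only the library numbered 2 in each arm. Each mutation is present in 1 line, so line and mutation cannot be told apart, and nothing in the labels says whether replicates were separate cultures, so the tests reflect no more than the scatter of these libraries, which may be technical.

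Long intergenic noncoding RNAs are transcribed from their own genes between protein-coding genes, are mostly spliced and polyadenylated, and carry no long open reading frame. They are known for low levels and for strong restriction to certain cell types, and some act in the nucleus as scaffolds of nuclear bodies or as regulators of nearby genes, while others act in the cytoplasm as decoys for proteins or miRNAs. Several are known targets of wild-type p53, and in lung tumours a number of them mark lineage or spread.

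Libraries held from 18336672 to 25810934 counts. Of 7 lung epithelial markers all had counts, and NKX2-1, the lung lineage factor, ranged from 27.0 CPM in NCI-H2110 to 338 CPM in NCI-H2087. Their summed level in NCI-H2087 was 4060 to 4371 CPM with control siRNA and 9002 to 9161 CPM with p53 siRNA. Of the 7, the keratins KRT8, KRT18 and KRT19 and the cadherin CDH1 rose in this line, and SFTPB, a surfactant protein gene, fell by 4.05 ± 0.41 log2 (edgeR, adjusted p = 0.00111). The summed endothelial markers were at 22.5 to 24.7 CPM with control siRNA and at 7.48 to 12.5 CPM with p53 siRNA in NCI-H2087, with none of the tested ones called. The part of these shifts in the changes below was not tested. The summed levels of fibroblast, immune and endothelial markers were at most 68.2, 10.01 and 60.8 CPM in any library, and the immune marker PTPRC stayed at or under 0.215 CPM.

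The lincRNAs took up a small part of each library, 0.31% to 0.37% of the counts in NCI-H2087 and NCI-H441. In NCI-H2110 the share was 0.517% with control siRNA and 0.565% with p53 siRNA. Without MALAT1 and NEAT1 the same share was 0.217% and 0.234% in NCI-H2110 and between 0.279% and 0.309% elsewhere, so the order of the lines turned with these 2 genes. MALAT1, which sits in nuclear speckles, and NEAT1, the scaffold of paraspeckles, together took 27.5% of all lincRNA counts, and the 7 genes with at least 100 CPM took 48.3%. The median lincRNA had a mean of 4.84 CPM, 111 had at least 5 CPM and 66 at least 10 CPM. Counts were found in all 10 libraries for 194 of the 229.

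MALAT1 stood at 462 and 450.2 CPM with control siRNA and at 247 and 287 CPM with p53 siRNA in NCI-H2087, between 215 and 551 CPM in NCI-H441, and at 1570.0 and 1162 CPM in NCI-H2110. NEAT1 ranged from 90.7 to 178 CPM over the 8 libraries of NCI-H2087 and NCI-H441 and stood at 1464 and 2188 CPM in NCI-H2110. Both were thus highest in NCI-H2110, with no overlap with the other lines. UCA1, a cancer-associated transcript first described in urothelial tumours, had 438 to 708 CPM in NCI-H441 libraries, only 65.0 to 141 CPM in those of NCI-H2087, and was at 0.236 and 0.173 CPM in NCI-H2110. NORAD, a cytoplasmic RNA that binds PUMILIO proteins, ranged from 161 to 269.8 CPM in NCI-H2087 and NCI-H441 and stood at 96.0 and 113 CPM in NCI-H2110. LINC00665 ranged from 107 to 220.3 CPM in NCI-H2087 and NCI-H441 and was at 0.708 and 0.737 CPM in NCI-H2110.

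The other genes among the 10 with the highest mean were LINC00504, LINC02895, MIR4435-2HG, GIHCG and CYTOR. LINC00504 and LINC02895 had means of 102 and 103 CPM in NCI-H2087, 92.0 and 85.1 CPM in NCI-H441, and stood between 122 and 179 CPM in the NCI-H2110 libraries. Both share stretches of at least 200 bases at 95% identity or more with other genes, LINC00504 with 31 genes and LINC02895 with 11, so their counts may hold reads of other loci. Per kilobase of GENCODE exons, MALAT1 had 65.8 CPM, UCA1 64.1, ERVH-1 64.1, GIHCG 42.0, NORAD 36.8 and NEAT1 20.9 CPM per kilobase. The kit for mRNA need not cover whole transcripts, so these values compare genes only approximately.

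Levels differed widely between the lines. A mean of at least 2 CPM was reached by 106 lincRNAs in all 3 lines and by 43 in 1 line. At least 90% of the level, taken over the 3 line means, fell in NCI-H2087 for 8 lincRNAs, in NCI-H441 for 5 and in NCI-H2110 for 5. GIHCG, first described in liver cancer, averaged 132 CPM in NCI-H2087 against 3.61 and 3.40 CPM in NCI-H441 and NCI-H2110. MSRB3-AS1, transcribed from the strand opposite the methionine sulfoxide reductase gene MSRB3, averaged 59.7 CPM in NCI-H2087 and at most 0.0487 CPM in the other lines.

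AC006058.1, at 42.4 CPM, LINC02802 and LINC00960 were the others of highest level among those restricted to NCI-H2087. In NCI-H441 LINC02474 ranged from 48.3 to 68.9 CPM, against at most 4.91 CPM in the other lines, and Z98257.1, MNX1-AS1 and LINC01116 had 92.4%, 92.5% and 96.9% of their level there. In NCI-H2110 LINC00707, a transcript described in lung adenocarcinoma, held 91.8% of its level. ERVH48-1, which derives from an endogenous retrovirus, stood at 58.3 and 59.4 CPM in NCI-H2110 and at most 0.164 CPM elsewhere, and AC020909.2, CASC15 and LINC02762 had at least 95.3% of their level in this line. Each of these lines is 1 line of its mutation, so these are differences between lines.

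**Figure D1:**
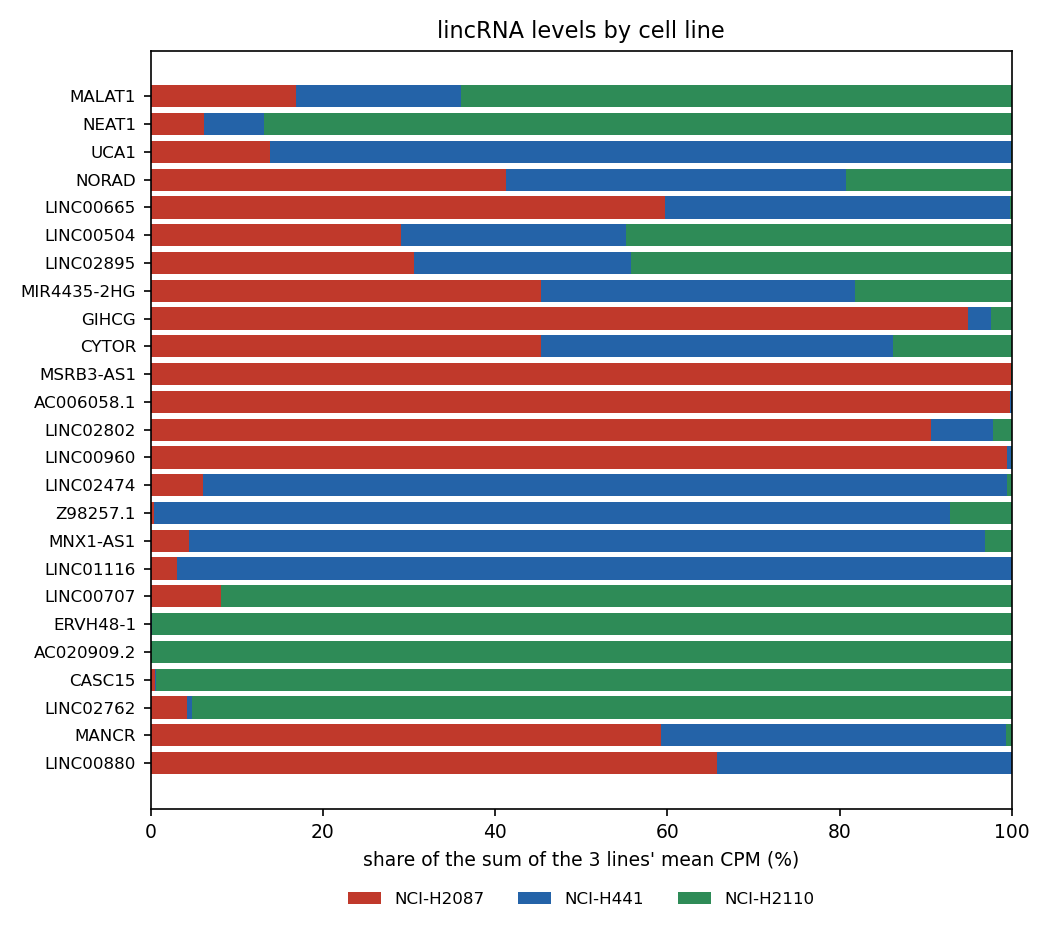
Share of the sum of the 3 lines' mean CPM found in each line (%), for the 10 lincRNAs of highest mean level, up to 5 with at least 90% of their level in 1 line, and MANCR and LINC00880. Bars are means over the 4, 4 and 2 libraries of NCI-H2087, NCI-H441 and NCI-H2110, and MALAT1 (64.0%) and NEAT1 (86.8%) have most of their level in NCI-H2110.

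In NCI-H2087, p53 siRNA raised 19 of the 229 lincRNAs and lowered 14. MANCR, LINC00880, LINC00973, LINC00707 and MSRB3-AS1 rose by between 2.55 and 3.24 log2, and LINC02889, AL590004.3 and AC083843.2 fell by between 1.93 and 3.93 log2. Calls are from edgeR's quasi-likelihood test with Benjamini-Hochberg adjustment over 17978 genes, at adjusted p below 0.05. The background was 4.98% of all genes called higher and 3.69% called lower (8.68% in all), against 8.3% and 6.11% of the lincRNAs. Among genes of any type with a mean of at least 2 CPM these shares were 6.6% and 4.47%, or 11.1% in all. Of the lincRNAs that reached the threshold in the p53 siRNA libraries alone, 4 were called higher (LINC00880, LINC01444, AC106712.1 and AC091173.1), and of those that reached it in the control libraries alone, 4 were called lower (LINC02889, AL590004.3, CENATAC-DT and ERVK9-11). These 8 entered through the arm where they are high, so their counts support nothing. Among the 204 that reached the threshold in both arms, a restriction chosen after seeing the data, 15 were called higher and 10 lower. The shares of 8.3% and 6.11% above include the 8 that entered through 1 arm, so no excess over the background can be read from them. For the 204, no share of all genes chosen in the same way was computed.

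The median log2 fold change of the lincRNAs was −0.19, against −0.03 for all genes tested, with 88 lincRNAs above 0 and 139 below. An unadjusted p below 0.05 was found for 79 lincRNAs (34.5%), against 25.3% of all genes. Both p53 siRNA libraries lay above both controls for 45 lincRNAs and below them for 90, against 25.4% and 30.4% of all genes, and all 33 called were among these. DESeq2 called 41, against 11.9% of all genes. Scaling by library totals moved the median of all genes to −0.21 and that of the lincRNAs to −0.37, and gave 17 lincRNAs called higher and 24 lower, against 3.55% and 7.15% of all genes. Without 1 library of NCI-H2087 the median log2 fold change of the lincRNAs ran from −0.25 to −0.13. The change of MANCR ran from 2.625 to 2.77 log2 and that of LINC00707 from 2.01 to 3.90. For LINC00880, which entered through 1 arm, it ran from 3.03 to 3.37, and for GIHCG from −0.24 to −0.05. Fewer lincRNAs were called in each of these fits, and most of the 33 lost the call in at least 1. The share of all genes called in them was not computed. Each of these fits leaves an arm of NCI-H2087 with 1 library, which is assumed to vary like the other groups. In bulk RNA, fewer cells of a kind and less RNA per cell cannot be told apart.

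**Figure D2:**
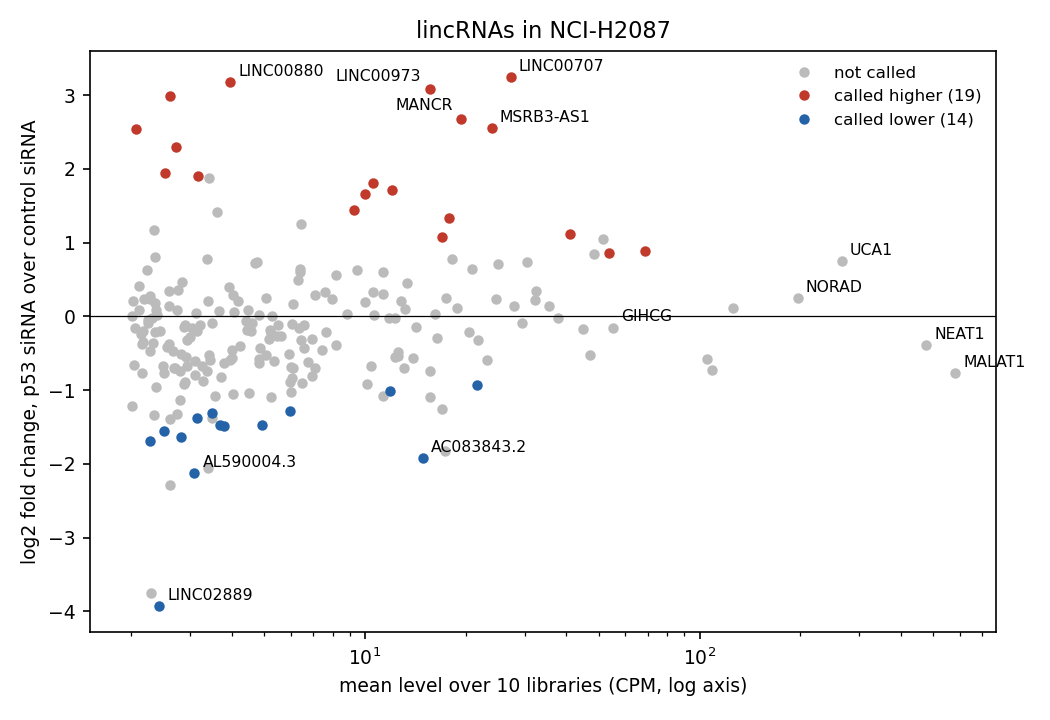
Log2 fold change of p53 siRNA over control siRNA in NCI-H2087 against the mean level over the 10 libraries (CPM, log axis), 1 point per lincRNA. The 19 called higher (red) and 14 called lower (blue) have mean levels of up to 68.6 CPM, that of MIR4435-2HG, and the more abundant MALAT1, NEAT1, UCA1 and NORAD are not called.

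MANCR (ENSG00000231298), the mitotically associated long noncoding RNA, stood at 7.37 and 8.14 CPM with control siRNA and at 50.6 and 49.1 CPM with p53 siRNA in NCI-H2087. Both p53 siRNA libraries were far above both controls, and the rise was 2.68 ± 0.20 log2 (adjusted p = 0.000388), the smallest adjusted p of the lincRNAs. In NCI-H441 control libraries had 15.7 and 17.6 CPM of MANCR and p53 siRNA libraries 20.2 and 24.5 CPM. These groups did not overlap either, but the change of 0.43 ± 0.19 log2 was not called (edgeR, adjusted p = 0.933). In NCI-H2110 it was at 0.354 and 0.303 CPM.

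LINC00707 (ENSG00000238266) stood at 2.22 and 1.73 CPM with control siRNA and at 7.91 and 29.3 CPM with p53 siRNA in NCI-H2087. The p53 siRNA libraries lay above the controls but far from each other, and the rise was 3.24 ± 0.55 log2 (edgeR, adjusted p = 0.00816). In NCI-H441 at most 1 count per library was found for it, and in NCI-H2110 it stood at 96.4 against 135 CPM. LINP1, which acts in nonhomologous end joining of DNA, lies 39017 bases from LINC00707 in GENCODE 29. Its levels in NCI-H2087 were 8.46 and 6.33 CPM against 25.9 and 20.9 CPM (1.66 ± 0.29 log2, edgeR adjusted p = 0.00946), and in NCI-H2110 17.2 against 16.2 CPM.

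LINC00880 (ENSG00000243629) stood at 1.13 and 1.43 CPM with control siRNA and at 10.98 and 12.4 CPM with p53 siRNA in NCI-H2087, a rise of 3.17 ± 0.35 log2 (edgeR, adjusted p = 0.00143). In NCI-H441 the control libraries had 2.62 and 1.48 CPM and the p53 siRNA libraries 4.79 and 4.62 CPM. The groups did not overlap in either line, but the change of 1.21 ± 0.33 log2 in NCI-H441 was not called (edgeR, adjusted p = 0.933). NCI-H2110 had no count in either library. LINC00880 reached the threshold in the p53 siRNA libraries alone, so these rises helped to select it and support nothing about the lincRNAs. LINC02029, on the opposite strand, overlaps 53.4% of the exon bases of LINC00880, and the sources used here do not say whether counting used strand, so the reads of these genes may not be separable.

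LINC00973 stood at 6.55 and 5.54 CPM with control siRNA and at 41.2 and 60.8 CPM with p53 siRNA in NCI-H2087 (3.08 ± 0.42 log2, edgeR adjusted p = 0.00319). In NCI-H441 the values overlapped, at 6.82 and 16.6 CPM against 7.13 and 11.3 CPM. MSRB3-AS1 stood at 13.8 and 20.8 CPM with control siRNA and at 85.7 and 118 CPM with p53 siRNA in NCI-H2087 (2.55 ± 0.28 log2, edgeR adjusted p = 0.00151). MSRB3 itself, the coding gene on the other strand, had mean levels of 2.41 and 1.49 CPM and was not called (−0.70 ± 0.53 log2, edgeR adjusted p = 0.453).

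Smaller rises included known cancer-associated transcripts. LINC-PINT, an RNA induced by wild-type p53, stood at 6.50 and 8.41 CPM with control siRNA and at 15.4 and 36.7 CPM with p53 siRNA (1.80 ± 0.37 log2, edgeR adjusted p = 0.0183). The table holds a second LINC-PINT ID, typed as processed transcript, which went from 16.6 and 25.8 CPM to 10.9 and 14.9 CPM (−0.72 ± 0.29 log2, edgeR adjusted p = 0.164), so the fold changes of the 2 IDs differed in sign. SFTA1P, a surfactant-associated pseudogene transcript of the lung, stood at 7.06 and 9.80 CPM against 21.1 and 34.4 CPM (1.71 ± 0.42 log2, edgeR adjusted p = 0.0359). AC106712.1 (2.98 ± 0.41 log2), LINC01444 (2.53 ± 0.39), LINC02535 (2.29 ± 0.41), AC091173.1 (1.95 ± 0.35) and LINC01293 (1.90 ± 0.33) completed the 10 largest rises, each from a control level of at most 2.11 CPM. AC106712.1 shares 87.3% of its exon bases with RDUR on the same strand. AC106712.1, LINC01444 and AC091173.1 reached the threshold in the p53 siRNA libraries alone, so their rises helped to select them.

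MIR4435-2HG and CYTOR, a paralogous pair of which the second is named as a cytoskeleton regulator, were the most abundant lincRNAs that rose. MIR4435-2HG stood at 62.6 and 57.1 CPM against 120.1 and 102 CPM (0.89 ± 0.17 log2, edgeR adjusted p = 0.0132), and CYTOR at 48.6 and 44.1 CPM against 89.6 and 79.1 CPM (0.86 ± 0.17 log2, edgeR adjusted p = 0.0157). Their transcripts align over 2254 bases at 99.2% identity. The window of 80 bases below, from GENCODE 29 transcripts, differs at 1 base, in capitals, and is shown because a read lying within it can be assigned to one of the pair only by that base.
CYTOR: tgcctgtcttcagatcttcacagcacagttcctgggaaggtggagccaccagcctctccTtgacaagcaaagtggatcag
MIR4435-2HG: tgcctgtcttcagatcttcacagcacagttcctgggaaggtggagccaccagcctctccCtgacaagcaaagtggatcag
How shared reads were divided is not given in the sources used here, so the similar rises of the pair are not independent measurements.

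LINC02889 stood at 1.80 and 3.47 CPM with control siRNA and at 0.256 and 0.0845 CPM with p53 siRNA in NCI-H2087, which is 35 and 92 counts against 6 and 2 counts. Its fall of 3.93 ± 0.66 log2 (edgeR, adjusted p = 0.008) was the largest of the lincRNAs called. In NCI-H441 its arms overlapped, with 4.72 and 2.40 CPM for control siRNA and 4.63 and 2.82 CPM for p53 siRNA. AC083843.2 stood at 20.7 and 22.2 CPM with control siRNA and at 5.47 and 5.83 CPM with p53 siRNA in NCI-H2087, a fall of 1.93 ± 0.22 log2 (edgeR, adjusted p = 0.00183). The NCI-H441 control libraries had 9.70 and 11.2 CPM and the p53 siRNA libraries 15.1 and 11.2 CPM, and NCI-H2110 had 23.6 and 23.5 CPM. AL590004.3 went from 7.43 and 12.6 CPM to 2.35 and 2.24 CPM (−2.12 ± 0.35 log2, edgeR adjusted p = 0.00713). LINC02889 and AL590004.3 reached the threshold in the control libraries alone, so their falls helped to select them and support nothing about the lincRNAs.

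CENATAC-DT (−1.69 ± 0.46 log2), AC011294.1 (−1.63 ± 0.42), ERVK9-11 (−1.55 ± 0.37), HK2-DT (−1.48 ± 0.31), LINC02861 (−1.48 ± 0.32), AC104794.2 (−1.47 ± 0.35) and AL022322.1 (−1.37 ± 0.30) completed the 10 largest falls. Their control levels ranged from 1.77 to 7.80 CPM. CENATAC-DT and ERVK9-11 reached the threshold in the control libraries alone, so their falls helped to select them. OSER1-DT, LINC02604, AC010329.1 and MUC20-OT1 were the remaining falls, by 1.31, 1.28, 1.00 and 0.93 log2. MUC20-OT1 has stretches of near-identical sequence in 4 other genes, among them the succinate dehydrogenase pseudogene SDHAP1 at 99.2% identity over 1924 bases. A single exon block described 8 of the 14 lincRNAs that fell, 0 of the 19 that rose and 51 of the 196 not called. Reads of a transcript without introns cannot be told from genomic DNA or unspliced RNA by splicing, and the part of either was not tested.

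**Figure D3:**
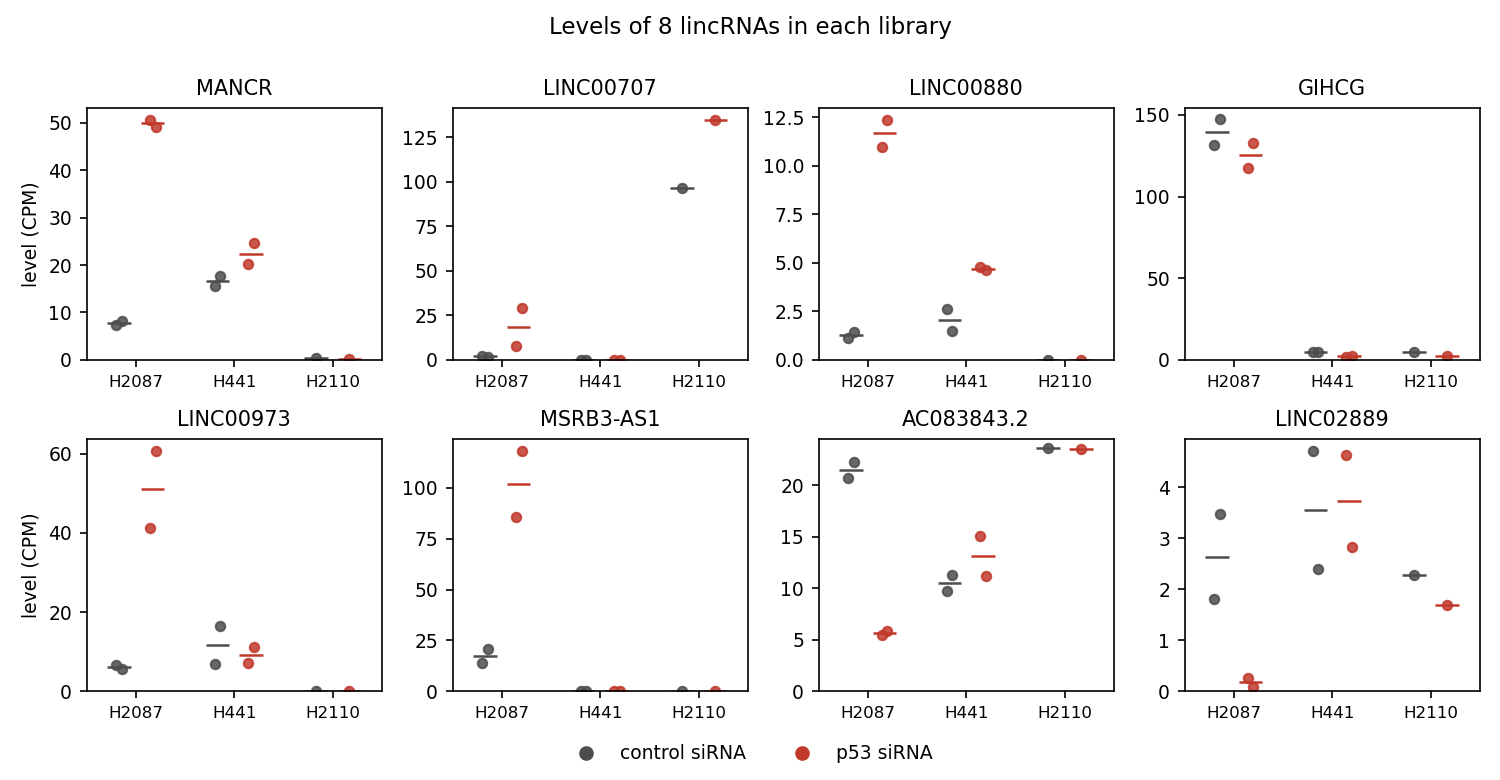
Levels (CPM, linear axes from 0) of 8 lincRNAs in each library, with 1 point per library and bars at the mean, for control siRNA (grey) and p53 siRNA (red) in NCI-H2087, NCI-H441 and NCI-H2110. MANCR, LINC00973 and MSRB3-AS1 separate by siRNA in NCI-H2087, LINC00707 is highest in NCI-H2110, and GIHCG is between 118 and 147 CPM in NCI-H2087.

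Promoter sequences from 250 bases before to 50 bases after the start, from RefSeq on build GRCh38.p14, were matched by symbol for 93 of the 229 lincRNAs, 8 of which rose and 4 of which fell in NCI-H2087. The 5 below are examples that differ in base composition and in matches to the AP-1 motif. They were not taken by size of change, and CYTOR had the smallest called rise, 0.86 log2. Each shown lincRNA that rose has a match, whereas LINP1, LINC02802, LINC00941 and LINC01444 also rose, have no match and are not shown. AP-1 matches on either strand (TGANTCA) are in capitals, and the first 3 lincRNAs rose whereas the last 2 fell.
MANCR, chr10:4678021-4678320, minus strand: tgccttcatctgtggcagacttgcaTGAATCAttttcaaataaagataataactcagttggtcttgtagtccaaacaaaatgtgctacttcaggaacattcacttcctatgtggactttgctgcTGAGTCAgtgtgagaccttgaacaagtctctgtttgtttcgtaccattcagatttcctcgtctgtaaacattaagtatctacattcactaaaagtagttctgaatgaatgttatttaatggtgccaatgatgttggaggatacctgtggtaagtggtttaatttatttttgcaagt
CYTOR, chr2:87455177-87455476, plus strand: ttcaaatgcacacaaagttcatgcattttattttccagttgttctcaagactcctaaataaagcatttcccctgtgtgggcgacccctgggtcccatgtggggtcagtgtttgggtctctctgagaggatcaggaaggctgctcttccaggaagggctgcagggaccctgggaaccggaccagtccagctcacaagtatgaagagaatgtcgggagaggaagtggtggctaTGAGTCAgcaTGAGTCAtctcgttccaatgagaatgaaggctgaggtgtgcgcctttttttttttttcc
MSRB3-AS1, chr12:65642323-65642622, minus strand: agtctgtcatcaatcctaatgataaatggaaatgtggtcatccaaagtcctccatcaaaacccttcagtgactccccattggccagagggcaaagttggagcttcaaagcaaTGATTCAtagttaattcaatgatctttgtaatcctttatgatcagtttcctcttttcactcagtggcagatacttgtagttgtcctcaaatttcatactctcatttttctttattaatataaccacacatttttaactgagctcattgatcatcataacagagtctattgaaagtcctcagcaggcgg
LINC02889, chr7:17558860-17559159, minus strand: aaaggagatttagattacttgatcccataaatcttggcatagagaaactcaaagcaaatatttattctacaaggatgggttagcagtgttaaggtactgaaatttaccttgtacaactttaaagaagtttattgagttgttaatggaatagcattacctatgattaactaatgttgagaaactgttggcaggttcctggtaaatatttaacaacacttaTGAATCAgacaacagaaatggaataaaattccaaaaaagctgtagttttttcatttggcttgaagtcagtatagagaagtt
HK2-DT, chr2:74833938-74834237, minus strand: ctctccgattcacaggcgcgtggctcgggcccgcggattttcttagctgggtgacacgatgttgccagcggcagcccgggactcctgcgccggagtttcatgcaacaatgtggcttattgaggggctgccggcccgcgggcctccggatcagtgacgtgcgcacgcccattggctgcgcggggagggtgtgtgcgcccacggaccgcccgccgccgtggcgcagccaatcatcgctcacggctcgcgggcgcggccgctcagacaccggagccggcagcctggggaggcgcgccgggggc
MANCR and CYTOR have 2 matches each, MSRB3-AS1 and LINC02889 have 1 and HK2-DT has 0.

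The AP-1 letters occurred in the promoters of 4 of the 8 lincRNAs that rose (MANCR, CYTOR, MIR4435-2HG and MSRB3-AS1), 1 of the 4 that fell, 8 of the 81 not called and 7.72% of all 34943 promoters. The CYTOR and MIR4435-2HG genes are copies of each other and do not count as separate cases. This motif was chosen for display after the counts of 8 motifs were seen. The others were CRE (TGACGTCA), TEAD (GGAATG), the CCAAT box (CCAAT), the GC box (GGGCGG), the TATA box (TATAAA), ETS (CCGGAAG) and the p53 response element without a spacer, all on both strands. CCAAT occurred in 4 of the 8 that rose, 2 of the 4 that fell, 44.1% of the 93 and 34.6% of all promoters. GGGCGG occurred in 2 of the 8, 2 of the 4, 50.5% of the 93 and 44.9% of all. CRE, TEAD, TATA and ETS letters occurred in 0 of the 12 called and in 3, 11, 15 and 12 of the 93, against 1.84%, 14.0%, 11.6% and 10.2% of all promoters. The p53 response element occurred in 0 of the 93 and 0.0172% of all promoters. The median GC content was 47.5% for the lincRNAs that rose, 71.3% for those that fell, 62.3% for all 93 and 58.7% for all promoters. A match is a description of the letters and not a binding site.

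Some lincRNAs start close to a coding gene on the other strand. Within 1000 bases, 51 of the 229 had such a divergent partner, and both genes were tested in 50 pairs. The median log2 fold change in NCI-H2087 was −0.31 for the lincRNAs with a partner and −0.16 for the 178 without, and 0.04 for the partners. Signs were shared in 28 of the 50 pairs, and the fold changes correlated with r = 0.20 and rho = 0.09 across pairs, which share libraries and are not replicates.

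The 4 called lincRNAs with a partner were OSER1-DT, CENATAC-DT, HK2-DT and LINC00941, and none of their partners was called. HK2-DT stood at 6.50 and 7.77 CPM against 2.31 and 2.79 CPM, while HK2, the glycolytic enzyme hexokinase 2, had mean levels of 109 and 106 CPM (−0.04 ± 0.20 log2, edgeR adjusted p = 0.942). OSER1-DT stood at 7.22 and 7.58 CPM against 2.65 and 3.30 CPM, and OSER1 had means of 68.6 and 64.2 CPM (−0.10 ± 0.19 log2, edgeR adjusted p = 0.804). LINC00941 stood at 8.97 and 8.33 CPM against 20.4 and 26.5 CPM, and CAPRIN2, an RNA-binding protein gene, had means of 22.4 and 44.5 CPM (0.99 ± 0.28 log2, edgeR adjusted p = 0.0604). In 4 other pairs the partner was called and the lincRNA was not, with SETD1B, ZNF674 and RAB30 lower and SOX21 higher.

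**Figure D4:**
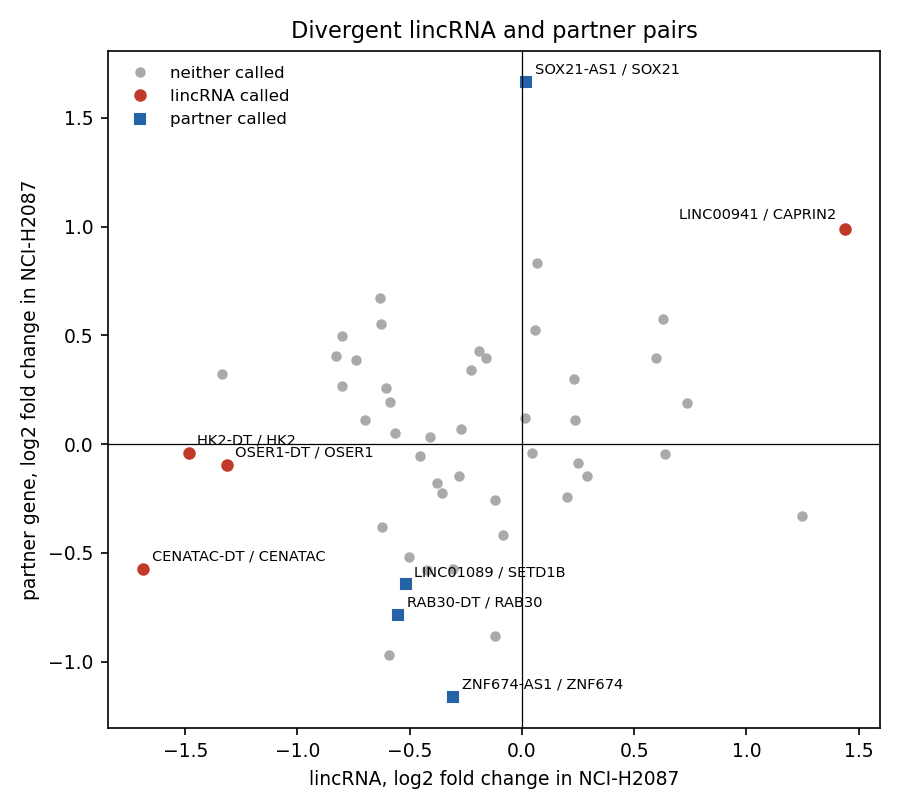
Log2 fold change in NCI-H2087 of the partner gene against that of the lincRNA, for 50 pairs with starts within 1000 bases on opposite strands. Red points are pairs whose lincRNA was called, blue squares pairs whose partner was called, and no pair had both.

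For 26 of the 33 called lincRNAs the nearest coding gene was tested, and for 5 of them it was called in the same direction. Over all 189 lincRNAs with a tested nearest gene, called or not, 20 of the nearest genes were called in either direction and the signs were shared in 109. LINC00973 rose with DCBLD2, a membrane receptor gene 79369 bases away (1.30 ± 0.24 log2, edgeR adjusted p = 0.0119), and LINC02535 with NT5E, the ecto-5'-nucleotidase CD73 gene 59398 bases away (0.97 ± 0.19 log2, edgeR adjusted p = 0.0151). LINC02861 fell with the adenylate cyclase gene ADCY9 (−1.67 ± 0.22 log2, edgeR adjusted p = 0.00263), AC104794.2 with the KLF11 transcription factor gene (−0.72 ± 0.19 log2, adjusted p = 0.0443) and LINC02604 with TMEM248 (−0.59 ± 0.15 log2, adjusted p = 0.0404). For none of the 26 called lincRNAs was the nearest gene called in the opposite direction.

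In NCI-H441, 0 lincRNAs were called by edgeR, and 9 had an unadjusted p below 0.05, against 0.00556% and 4.43% of all genes (0.0% called higher). GIHCG (ENSG00000257698) had the smallest p. It stood at 5.02 and 4.96 CPM with control siRNA and at 1.80 and 2.66 CPM with p53 siRNA (−1.16 ± 0.22 log2, edgeR adjusted p = 0.614). DESeq2 called GIHCG, and no other lincRNA, in this line (adjusted p = 0.00898), against 0.139% of all genes. In NCI-H2087 GIHCG levels overlapped, with 131 and 147 CPM for control siRNA and 118 and 133 CPM for p53 siRNA (−0.15 ± 0.19 log2, edgeR adjusted p = 0.66). In NCI-H2110 it stood at 4.68 against 2.12 CPM.

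The other lincRNAs of smallest p in NCI-H441, none of them called, were LINC00880, LINC01444 (1.08 ± 0.37 log2), MANCR, LINC00960 (1.12 ± 0.47) and CYTOR (0.30 ± 0.17) on the higher side. On the lower side they were AC069360.1 (−1.44 ± 0.52 log2), LINC01355 (−0.79 ± 0.31), AC090204.1 (−0.68 ± 0.28) and LINC00467 (−0.54 ± 0.24). LINC01444 stood at 1.33 and 1.66 CPM against 2.91 and 3.44 CPM, without overlap. LINC00880 and LINC01444 reached the threshold in the p53 siRNA libraries alone, whose mean includes those of NCI-H441, so these rises helped to select them. Of the 19 lincRNAs that rose in NCI-H2087, 8 had a positive log2 fold change in NCI-H441, and of the 14 that fell, 5 had a negative one. Among the 196 not called, 118 had the same sign in both lines. These sign counts have no minimum level and include lincRNAs almost absent from NCI-H441, such as LINC00707 and MSRB3-AS1. They also include 4 called lincRNAs that entered through the p53 siRNA libraries alone and 4 through the control libraries alone. Both arm means include NCI-H441, so the sign counts of the called ones are a description and support nothing. A mean of at least 2 CPM in all 3 lines was reached by 5 of the 19 and 5 of the 14. The sign counts for NCI-H2110 below require at least 50 counts, so the 2 lines cannot be compared on them. The median over the lincRNAs was −0.08, against 0.01 for all genes.

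The difference between the changes of NCI-H2087 and NCI-H441 was called for 3 lincRNAs, 2 higher in NCI-H2087 and 1 lower, against 0.239% and 0.172% of all genes (0.412% in all). DESeq2 called 11, against 2.55% of all genes. MANCR differed by 2.26 ± 0.27 log2 (edgeR interaction, adjusted p = 0.0214), LINC00973 by 3.43 ± 0.57 (adjusted p = 0.0455) and AC083843.2 by −2.25 ± 0.31 (adjusted p = 0.0258). Each lost the call without control replicate 1 or 2 of NCI-H2087, without p53 siRNA replicate 2 of NCI-H2087, without control replicate 1 or 2 of NCI-H441 or without p53 siRNA replicate 1 of NCI-H441, and LINC00973 also without p53 siRNA replicate 2 of NCI-H441. The adjusted p over these omissions reached 0.138 for MANCR, 0.26 for LINC00973 and 0.176 for AC083843.2. Those of smallest p that were not called included AC106712.1 (3.04 ± 0.55 log2), LINC01293 (2.54 ± 0.46) and LINC00941 (1.59 ± 0.37) on the higher side and LINC02889 (−3.995 ± 0.82), LINC02604 (−1.69 ± 0.35), AL590004.3 (−2.13 ± 0.50) and MUC20-OT1 (−1.08 ± 0.27) on the lower side. Their adjusted p ran from 0.0561 to 0.137.

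In NCI-H2110, with 1 library per arm, the change was not tested and has no replicate check. Among 160 lincRNAs with at least 50 counts in either library, 2 were over 2-fold higher and 3 over 2-fold lower with p53 siRNA, against 0.904% and 0.589% of 12385 genes (1.49% in all). AC091173.1 stood at 0.787 against 2.69 CPM (1.67 log2) and LINC01609 at 2.05 against 4.64 CPM (1.15 log2). AC104041.1 went from 3.70 to 1.52 CPM (−1.24 log2), GIHCG from 4.68 to 2.12 CPM (−1.11 log2) and KLHL7-DT from 3.62 to 1.65 CPM (−1.10 log2). Of the lincRNAs called in NCI-H2087, 8 of the 19 that rose were measured here and 7 had a ratio above 1, and 6 of the 8 measured among those that fell had a ratio below 1. AC091173.1 was the one past 2-fold among these 16. It reached the threshold in the p53 siRNA libraries alone, whose mean includes that of NCI-H2110, so its rise here helped to select it and supports nothing. Among the 144 measured lincRNAs not called in NCI-H2087, 72 had the same sign in both lines. The lincRNAs called in NCI-H2087 include 4 that entered through the p53 siRNA libraries alone and 4 through the control libraries alone. Both arm means include NCI-H2110, so the sign counts of the called ones are a description and support nothing.

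**Figure D5:**
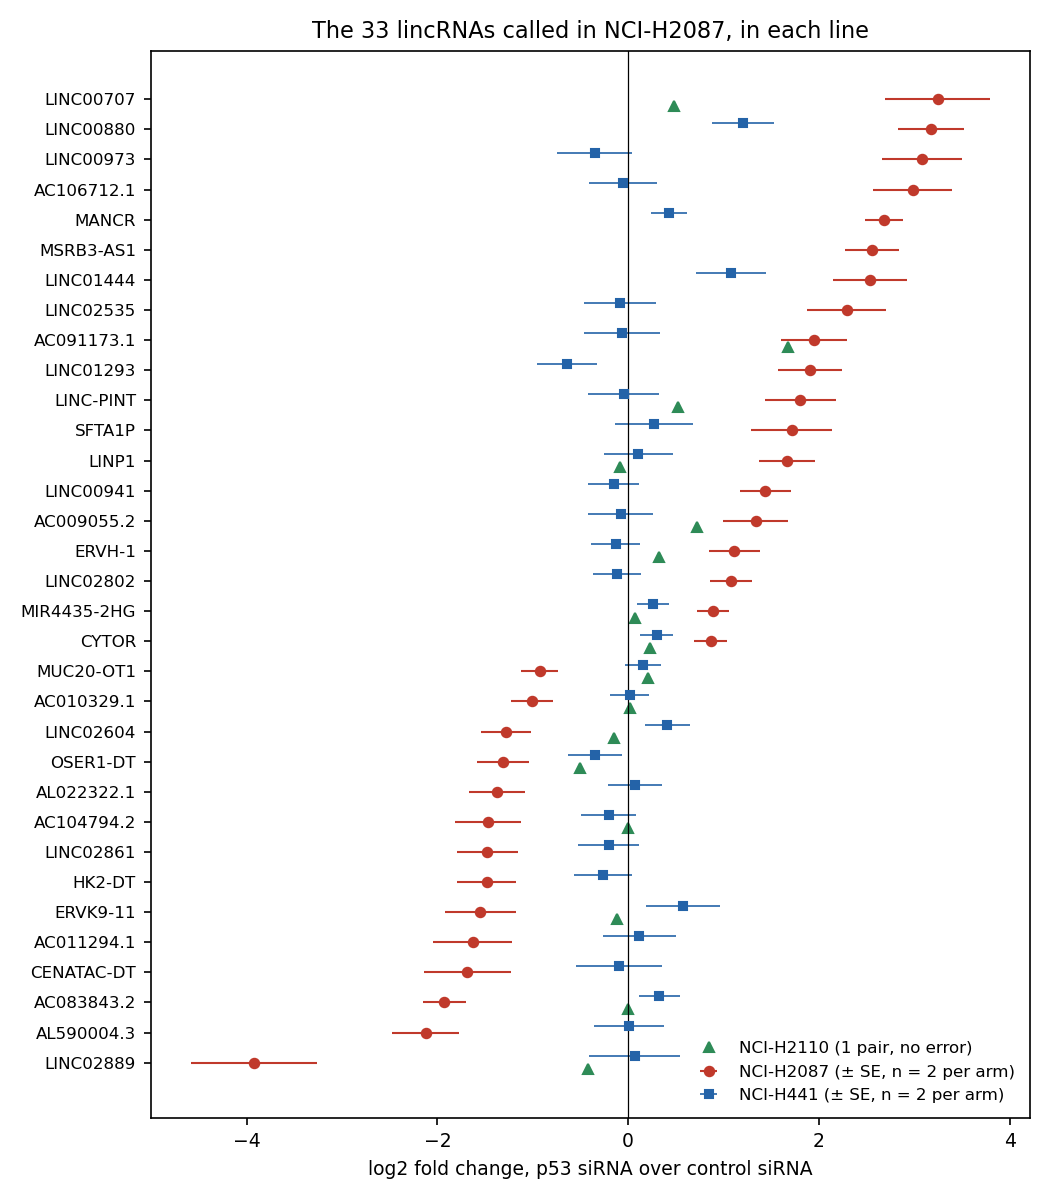
Log2 fold change of p53 siRNA over control siRNA for the 33 lincRNAs called in NCI-H2087, in NCI-H2087 (red, ± SE), NCI-H441 (blue, ± SE, those with a mean of at least 0.5 CPM in that line) and NCI-H2110 (green, 1 pair of libraries without error, those with at least 50 counts). The blue and green points lie near 0 for most, with LINC00880 and LINC01444 above 1 in NCI-H441 and AC091173.1 at 1.67 in NCI-H2110. LINC00880, LINC01444 and AC091173.1 reached the threshold in the p53 siRNA libraries alone, so these rises helped to select them.

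An additive model of line and siRNA over the 10 libraries called 2 lincRNAs, both higher, against 0.339% of all genes called higher and 0.0556% called lower (0.395% in all). DESeq2 called 8, against 3.39% of all genes. MSRB3-AS1 rose by 2.31 ± 0.41 log2 (edgeR, adjusted p = 0.0362) and LINC00880 by 2.17 ± 0.39 log2 (adjusted p = 0.0446). MSRB3-AS1 was at most 0.111 CPM in every library of NCI-H441 and NCI-H2110, so its change was measured in NCI-H2087, and DESeq2 gave 0.93 log2 with an adjusted p of 0.66. LINC00880 had no count in NCI-H2110. It reached the threshold of 2 CPM in the p53 siRNA libraries alone and so entered through the arm where it is high. Its call therefore adds nothing to the count set against all genes. Without the NCI-H2110 pair, an omission chosen after seeing the data, 1 lincRNA was called, and the share of all genes was not computed. Both lost the call without any 1 library of NCI-H2087, LINC00880 also without control replicate 2 of NCI-H441 and MSRB3-AS1 without control replicate 1 of NCI-H441. The lincRNAs of next smallest p were LINC01444 (1.77 ± 0.35 log2), LINC00707 (2.18 ± 0.57) and CYTOR (0.51 ± 0.14) on the higher side and LINC00858 (−1.42 ± 0.38), OSER1-DT (−0.79 ± 0.22), GIHCG (−0.67 ± 0.19), LINC01355 (−0.74 ± 0.22) and AC006058.1 (−1.40 ± 0.44) on the lower side, with adjusted p from 0.0641 to 0.19.

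Noncoding RNAs of known function were also read as lists, whose entries are of any gene type. The background for the counts is 4.98% of all genes called higher and 3.69% called lower in NCI-H2087, and in lists this short counts of 1 to 4 are descriptions of the genes named and no result about a list. Of 9 tested genes linked to p53, 1 rose in NCI-H2087, the LINC-PINT ID above. PVT1, MYC's neighbour, stood at 65.0 and 69.5 CPM against 68.1 and 79.8 CPM. MALAT1 and NEAT1, the 2 genes of nuclear bodies, had log2 fold changes of −0.77 ± 0.36 and −0.39 ± 0.23 and were not called. Of 31 small nucleolar RNA host genes 2 rose, SNHG16 (0.64 ± 0.15 log2, edgeR adjusted p = 0.0298) and ZFAS1 (0.80 ± 0.18, adjusted p = 0.0262), neither of them typed as lincRNA.

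Of 35 miRNA host genes 3 rose in NCI-H2087, MIR4435-2HG, CYTOR and MIR100HG, which is typed as processed transcript and went from 58.0 and 73.8 CPM to 255 and 402 CPM (2.32 ± 0.28 log2, edgeR adjusted p = 0.00215). Of 24 genes linked to lung cancer and invasion 4 rose, LINC00707, LINC00973, SFTA1P and LUCAT1, and 2 fell, TUG1 (−1.07 ± 0.16 log2, edgeR adjusted p = 0.00434) and SFTA3 (−1.60 ± 0.39, adjusted p = 0.0332). Of 5 genes linked to interferon 1 rose, LUCAT1, and of 6 linked to hypoxia 0 changed. In NCI-H441 no gene of these lists was called by edgeR, and the difference between the lines was called for LINC00973 and MIR100HG (2.35 ± 0.38 log2, edgeR interaction adjusted p = 0.0425). Median log2 fold changes in NCI-H2087 were −0.57 for the p53 list, −0.58 for nuclear bodies, 0.04 for miRNA hosts, −0.06 for lung cancer, 0.21 for interferon and −0.36 for hypoxia, against −0.03 for all genes.

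For each of the 4 lincRNAs MANCR, LINC00707, LINC00880 and GIHCG, the 3 genes with the most similar log2 level over the 10 libraries were found among all genes tested. These correlations describe libraries that fall into lines and arms, and carry no test. For MANCR they were PHC2, a Polycomb subunit gene (r = 0.994), the ETS-family gene ELK3 (0.993) and AKAP2 (0.992). For LINC00880 they were ERRFI1, an inhibitor of EGFR signalling (0.992), CYTOR (0.991) and LINC01444 (0.986). ERRFI1 had means of 1055 and 5181 CPM with control and p53 siRNA in NCI-H2087. For LINC00707 they were the kinesin light chain gene KLC1 (0.997), RBPMS2 (0.995) and SLC35F3 (0.992), and for GIHCG they were ST6GAL2 (0.994), ZNF280A (0.992) and FSD1 (0.991).

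Counting limits bear on some of these values. Exons of another gene overlap 98 of the 229 lincRNAs, on the opposite strand for 72, and 58 have a stretch of at least 200 bases at 95% identity in another gene. Among the lincRNAs called in NCI-H2087, 11 of the 19 that rose and 2 of the 14 that fell have such an overlap, and 6 and 2 have such a copy.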

How the data were processed

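RNA was sequenced from 10 libraries of 3 cell lines, 2 per arm in NCI-H2087 and NCI-H441 and 1 per arm in NCI-H2110. The authors deposited whole-number counts per Ensembl gene ID, without normalization. The submitters' processing notes name Bowtie2, RSEM 1.2.12 and hg19; whether the deposited counts are rounded estimates, and whether strand was used, is not given in the sources used here. Per the labels' protocols, a Lexogen kit for mRNA was used, which need not cover whole transcripts, so levels per kilobase are approximate.

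Gene types, exons and neighbours came from GENCODE 29, in which 5435 of the IDs are absent, and no coordinates of the counts were used. The filter filterByExpr of edgeR kept 17978 genes with 99.96% of the counts, and TMM scaled the libraries. Quasi-likelihood models in edgeR 4.0.16 (R 4.3.3) had 1 mean per group, or line plus siRNA for the additive model, with 4 and 6 residual degrees of freedom. Tests were two-sided, and p-values were adjusted over all genes tested. The common biological coefficient of variation was 19.8%. Levels in the text are CPM on TMM library sizes, except at the threshold of 2. NCI-H2110 ratios used a prior count of 2. Fits were tested on simulated data. Alternatives were library totals, DESeq2 1.42.0, no filter, a replicate block, other thresholds and leaving out each library.

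The lincRNAs, lists and tests were chosen with earlier results of these data known. The named lincRNAs were the 4 markers, the 10 of highest mean, those nearest the threshold, up to 10 called rises and falls per contrast by size, or the 5 of smallest p where fewer than 5 were called, the 5 largest in NCI-H2110, the 5 highest restricted to each line and list entries. Levels of 2 lincRNAs of the sex chromosomes are not reported, though both stay in the counts. Replicates were not copies of each other (chi-square per gene of 21.3 to 63.6). The level of the gene targeted by the siRNA is not reported here.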

Additional observations from a re-analysis of the deposited data

Results flagged for a closer look

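The change with p53 siRNA differed between NCI-H2087 and NCI-H441 for 3 lincRNAs by edgeR's interaction test (adjusted p below 0.05). The difference of the log2 fold changes, NCI-H2087 minus NCI-H441, was 2.26 for MANCR, 3.43 for LINC00973 and −2.25 for AC083843.2. MANCR and LINC00973 rose in NCI-H2087 by 2.68 and 3.08 log2, against 0.43 and −0.35 in NCI-H441, and AC083843.2 fell by 1.93 log2 in NCI-H2087, while its value in NCI-H441 was on the higher side, at 0.32 log2, and not called. Line and p53 mutation cannot be told apart in this difference. Groups held too few libraries for a check of single outlying values.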

How the results depend on the processing

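Of 51 values of named lincRNAs, none changed direction under the library totals, DESeq2, the replicate block or the omission of 1 library. In NCI-H2087, 33 calls became 55 with no filter on low counts and 17 among lincRNAs of at least 5 CPM, and 4 to 37 without 1 library. In NCI-H441, 0 calls became 1 with no filter and 1 with DESeq2, and 0 without each library. The additive model's 2 calls became 26 with no filter, 8 with DESeq2, 1 at 5 CPM, 1 without the NCI-H2110 pair, 1 among lincRNAs of at least 2 CPM in both arms and 0 to 3 without 1 library. For the difference between lines, 3 calls became 21 with no filter, 11 with DESeq2 and 0 to 5 without 1 library. With library totals the median log2 fold change was −0.37 in NCI-H2087, −0.13 in NCI-H441 and −0.18 for the difference, against −0.19, −0.08 and −0.06. Among lincRNAs of at least 5 CPM it was −0.10 and −0.0546 in the 2 lines. Without 1 library it ran from −0.25 to −0.13 in NCI-H2087, −0.0913 to −0.0013 in NCI-H441, −0.17 to 0.0143 for the difference and −0.16 to −0.09 in the additive model. Except as stated, the cause of these shifts was not tested.

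The labels give libraries of the 2 arms the same replicate numbers but no shared culture or day. The difference between replicates 1 and 2 correlated across 9332 genes between the arms, at r = 0.534 for NCI-H2087 and 0.595 for NCI-H441, a hint from the data and not from the design. With a replicate block 88 lincRNAs were called in NCI-H2087 (36 higher, 52 lower, among them all 33), against 25.4% of all genes, 1 in NCI-H441 (GIHCG, adjusted p = 0.0228; 0.417% of all genes), 33 for the difference (8.92%), among them the 7 given above as not called, and 1 in the additive model (0.395%), where LINC00880 had an adjusted p of 0.0574.

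Depth limits lincRNAs at the threshold, which have few counts: LINC02889 rests on 6 and 2 counts with p53 siRNA in NCI-H2087.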
